A study of Homo sapiens with 3 samples.

Results

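The 44 genes described here encode the machinery of DNA replication and S phase, and they were taken by name from the 29689 genes of the expression table. They were the minichromosome maintenance genes MCM2 to MCM7 and the loading factors ORC1, ORC6, CDC6, CDT1 and GMNN, the helicase activation genes CDC45, GINS1 to GINS4 and MCM10, and PCNA with its loader genes RFC2 to RFC5. The polymerase and primase genes POLA1, POLA2, PRIM1, PRIM2, POLD1, POLD2, POLE and POLE2 were included with FEN1 and LIG1, the nucleotide supply genes RRM1, RRM2, TYMS, TK1 and DUT, the chromatin genes UHRF1, CHAF1A and CHAF1B, and the transcription factor genes E2F1, E2F2, E2F7 and E2F8. All 44 were found in the table and none was listed at an FPKM of 0 in any tumor (FPKM, fragments normalized to gene length and to library size).

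RNAseq had been performed on 3 tumors of SUM-149, a triple-negative breast cancer (TNBC) cell line from an inflammatory tumor, which had been grown with Matrigel in the mammary fat pads of female Nu/Nu mice. The vehicle tumor came from a mock treated host, the CDK2i tumor from a host given dinaciclib, and the EZH2i tumor from a host given EPZ6438, with a treatment time of 10 days for the inhibitors. The labels name EPZ6438, while the study names another EZH2 inhibitor, GSK343, for treated SUM-149 xenografts in one of its legends. Each group had 1 library, so no difference below has a replicate error or a p-value, and every comparison is one of these libraries. Nu/Nu mice lack T cells but keep other host cells, and the number of animals behind each library is not given in the sources used here. The depth of the libraries was between about 16790000 and 19140000 fragments. The model is a single cell line, and mouse RNA was measured only as far as its reads aligned to the human genome.

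Replication origins are licensed in G1 phase, when the origin recognition complex, CDC6 and CDT1 load the MCM2 to MCM7 helicase onto DNA and geminin (GMNN) later blocks further loading. At the start of S phase CDC45 and the GINS complex join the helicase, polymerase alpha and primase lay down primers, and polymerases delta and epsilon extend them with the PCNA clamp. CDK2, which acts with cyclin E and cyclin A, promotes this start and phosphorylates the RB proteins, which release the E2F factors. E2F1 and E2F2 activate many replication genes, and E2F7 and E2F8 are themselves E2F targets that repress them. Dinaciclib inhibits CDK1, CDK2, CDK5 and CDK9, the last of which promotes transcription elongation, and EZH2 is the histone H3 lysine methyltransferase of Polycomb repressive complex 2.

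E2F factors bind motifs close to TTTCCCGC and TTTGGCGC, and these letters were searched on either strand in RefSeq promoter windows (assembly GRCh38) that ran from 250 bases before to 50 bases after each start. The table held 55 windows of 40 members, and MCM4, MCM5, GINS4 and E2F8 were not in it. TTTCCCGC was found in 11 of the 55 windows (20.0%), against 1.63% of all 35116 windows, and TTTGGCGC in 10 (18.2%), against 0.652%. A window with at least 1 of these motifs belonged to 20 of the 40 members. By windows this was 36.4%, against 2.27% of all promoters, 20.0% for G1/S control genes, 16.7% for the list of other replication genes, 16.7% for DNA repair genes and 4.17% for mitosis genes. The letters CCAAT, the NF-Y motif, were found in 54.5% of member windows, against 34.6% of all. Parts of 8 of these promoters are shown because their genes had unlike values in the CDK2i tumor, with the motif in capitals, 5′ to 3′ on the strand of the gene. GCGGGAAA is TTTCCCGC read on the other strand. Positions are from an exact match to GRCh37, and none of these stretches overlapped an annotated exon.
CDT1, chr16:88870136-88870195, plus strand: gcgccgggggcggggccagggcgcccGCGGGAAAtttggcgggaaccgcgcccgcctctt
GINS2, chr16:85722561-85722617, minus strand: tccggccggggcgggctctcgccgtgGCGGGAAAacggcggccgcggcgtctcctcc
GMNN, chr6:24775535-24775594, plus strand: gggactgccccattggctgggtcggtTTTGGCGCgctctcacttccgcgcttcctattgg
E2F1, chr20:32274192-32274237, minus strand: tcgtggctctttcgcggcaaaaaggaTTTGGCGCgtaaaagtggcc
E2F2, chr1:23857734-23857793, minus strand: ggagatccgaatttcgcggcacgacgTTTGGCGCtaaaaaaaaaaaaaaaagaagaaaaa
PCNA, chr20:5107294-5107353, minus strand: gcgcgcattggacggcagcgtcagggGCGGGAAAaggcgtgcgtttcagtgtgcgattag
MCM6, chr2:136634132-136634191, minus strand: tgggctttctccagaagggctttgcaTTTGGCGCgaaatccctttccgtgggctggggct
MCM3, chr6:52149681-52149740, minus strand: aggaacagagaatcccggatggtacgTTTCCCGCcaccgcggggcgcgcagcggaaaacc

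The genes shown above were chosen for unlike values, so by that choice their differences in the CDK2i tumor spread, from −1.23 for CDT1 to 0.14 for PCNA. Of these genes only PCNA was above its vehicle level there. CDT1 was 2.34-fold lower there than in the vehicle tumor, while PCNA was at 76.4 FPKM in vehicle and 84.2 in CDK2i, and MCM6 at 7.94 and 7.72. In log2 FPKM, the 20 members with a motif had median differences from vehicle of −0.36 under CDK2i and 0.54 under EZH2i. The 20 members whose windows held neither motif had medians of −0.50 and 0.46. Below vehicle in CDK2i were 18 of the 20 members with a motif and 14 of the 20 without. A difference below −1 in CDK2i was seen in 4 members with a motif, namely CDC6, CDT1, GINS3 and POLE2, and in 5 without. The CDK2i differences ran from −1.80 to 0.14 with a motif and from −1.48 to 0.68 without, so the ranges overlapped, and a match describes the sequence and not binding.

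In the vehicle tumor the members spanned levels from 1.57 FPKM for E2F7 to 117 FPKM for MCM7, with a median of 12.0 FPKM. Levels above log2 FPKM 3, which is 8 FPKM, were reached by 29 members in vehicle and by 36 in at least 1 tumor. The median member stood at 9.48 FPKM under CDK2i and at 19.1 FPKM under EZH2i. MCM7 was the highest member in each tumor, and went from 117 FPKM in the vehicle tumor to 111 under CDK2i and 99.9 under EZH2i. E2F8 was the lowest in both treated tumors. The EZH2i tumor had the highest level of the 3 for 37 of the 44 members and the CDK2i tumor the lowest for 34.

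**Figure D1:**
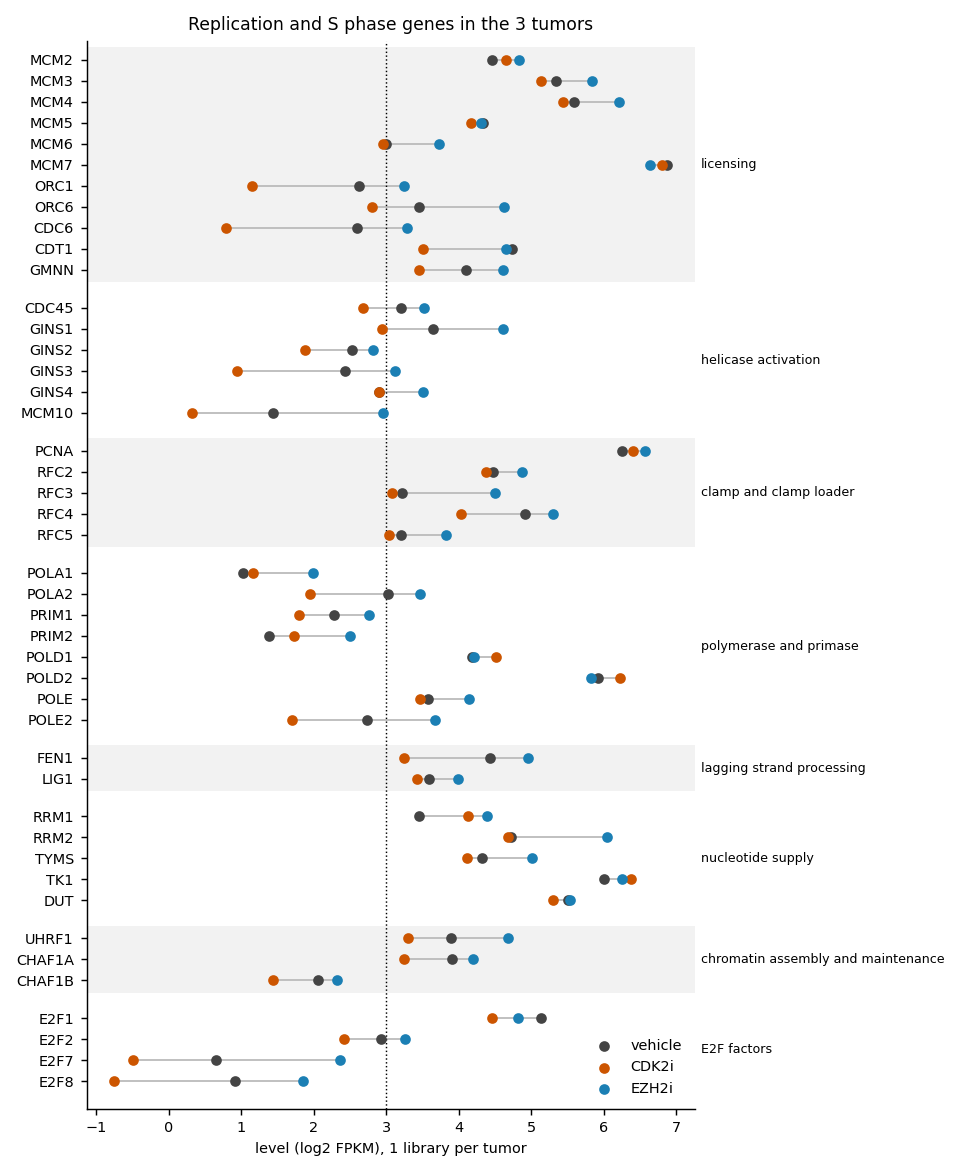
Level of each of the 44 members in the vehicle, CDK2i and EZH2i tumors, grouped by role, on the horizontal axis in log2 FPKM with 1 point per library; the dotted line marks log2 FPKM 3. EZH2i was the rightmost point for 37 members and CDK2i the leftmost for 34, and the gaps were wide for CDC6, ORC1, GINS3, MCM10, E2F7 and E2F8 and narrow for MCM5, MCM7 and DUT.

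A member was counted as past the thresholds at a fold greater than 2, provided that at least 1 of the compared tumors exceeded log2 FPKM 3. These are the study's limits without its p-value. In the CDK2i tumor 35 members were below and 9 above their vehicle level, against 58.0% of all 11109 expressed genes below it (mean log2 FPKM above 1, no value at 0). The median difference of the members was −0.34 on the log2 scale, against −0.11 for all expressed genes, and it ranged from −1.80 for CDC6 to 0.68 for RRM1. Past the thresholds 3 members were lower, CDT1, POLA2 and FEN1, and 0 were higher. Of all genes above the minimum, 8.07% were lower and 3.27% higher by this rule, and of the 29 members above it, 10.3% were lower, which is near the background. With the minimum lowered to log2 FPKM 1, 8 of the 44 members were lower and 0 higher. E2F7 and E2F8 did not reach this minimum in vehicle or CDK2i. Of all genes above it, 13.2% were lower and 4.15% higher. In bulk tumor RNA, fewer cells in S phase and less RNA per cell cannot be told apart.

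In the EZH2i tumor 39 members were above and 5 below their vehicle level, against 38.5% of all expressed genes below it. The median difference was 0.52, against 0.19 for all expressed genes, with a range from −0.31 for E2F1 to 1.71 for E2F7. ORC6, RFC3 and RRM2 were past the thresholds and higher, and 0 members were lower, against 8.93% higher and 4.42% lower among all genes above the minimum. Of the 36 members above the minimum, 8.33% were higher, again near the background. With the minimum at log2 FPKM 1, MCM10, PRIM2 and E2F7 joined them, 6 of the 44 members in all and 0 lower. Of all genes above this minimum, 12.7% were higher and 5.29% lower. Both comparisons used the same vehicle library, so that an unusual vehicle value moves a gene the same way in both of them.

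**Figure D2:**
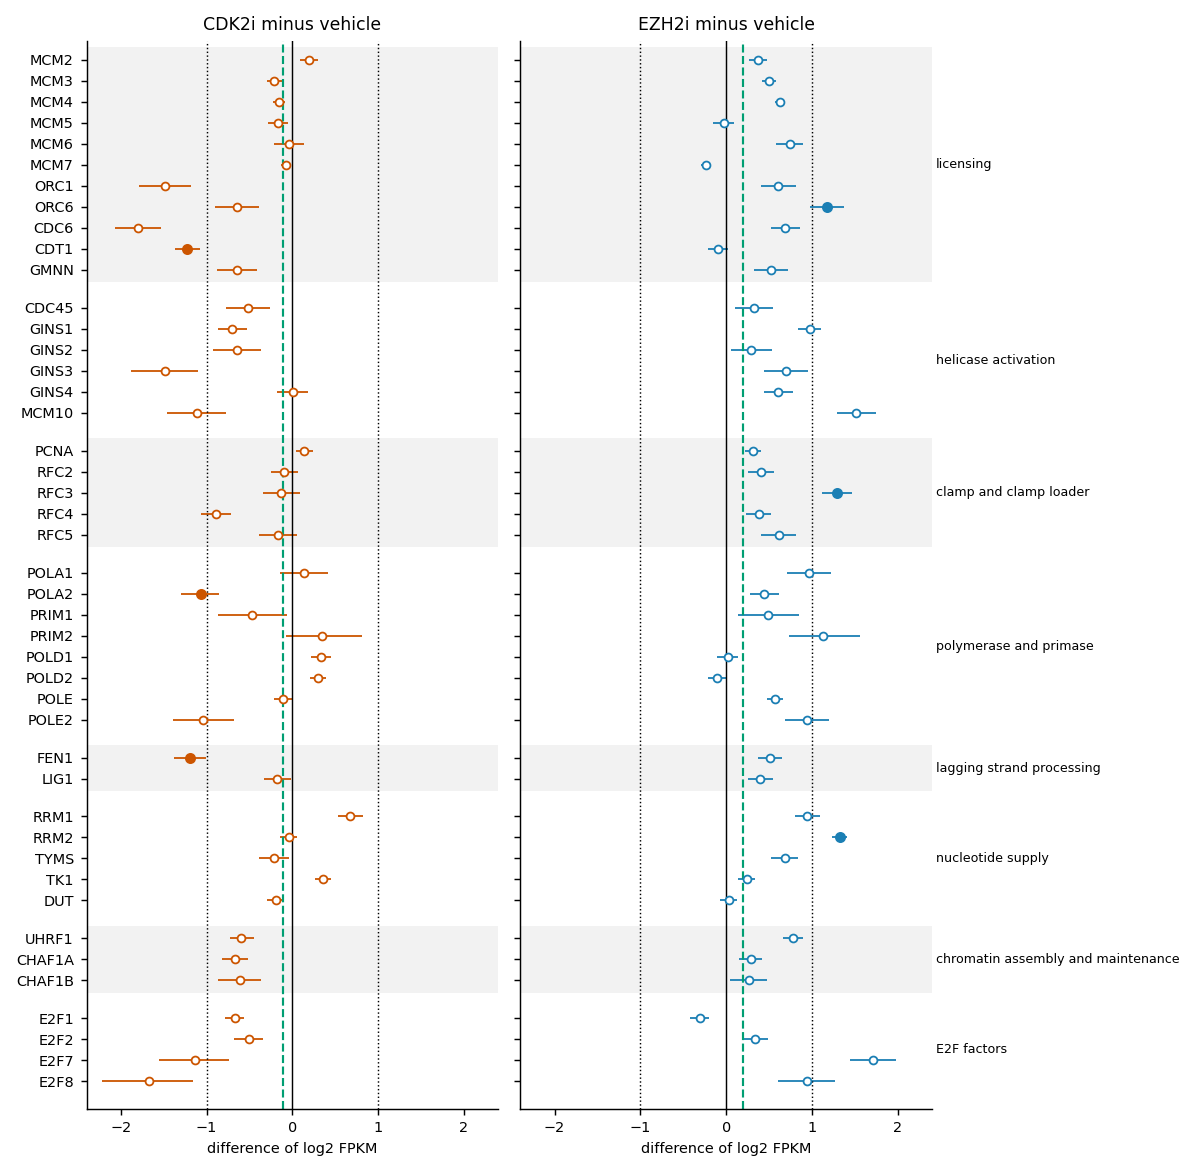
Difference in log2 FPKM of each member from the vehicle tumor, for CDK2i on the left and EZH2i on the right, with 95% intervals for counting error alone; filled points were past the fold and level thresholds, dotted lines mark a fold of 2 and the green dashed line is the median of all expressed genes. Most CDK2i points lie left of 0 with CDC6 at −1.80, and most EZH2i points lie right of 0 with E2F7 at 1.71.

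The MCM2 to MCM7 genes, which encode the 6 subunits of the helicase ring, kept close to their vehicle level in the CDK2i tumor. Their differences ran from −0.21 for MCM3 to 0.19 for MCM2, with a median of −0.11. MCM2 measured 22.0 FPKM in the vehicle tumor, 25.1 under CDK2i and 28.4 under EZH2i. MCM3 was at 40.6, 35.0 and 57.4 FPKM in the same order. In the EZH2i tumor the 6 genes spread more widely, from −0.23 for MCM7 to 0.74 for MCM6, with MCM4 at 0.63 and MCM5 at −0.03. MCM6 had 7.94 FPKM without inhibitor, 7.72 with CDK2i and 13.2 with EZH2i, and of the treated tumors only EZH2i lay outside the counting error of the vehicle level. None of the 6 was past the thresholds in any of the 3 comparisons.

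The genes that load this helicase had values unlike those of the ring itself in the CDK2i tumor. CDC6, an ATPase of the loading reaction (chr17:38444131-38460909, GRCh37), measured 6.05 FPKM in the vehicle tumor, 1.74 under CDK2i and 9.75 under EZH2i. The CDK2i level was thus 3.49-fold below vehicle, with a 95% counting interval of −2.07 to −1.53 for the log2 difference of −1.80. Such intervals are exact binomial ones on the estimated fragments of the gene and leave out the error between animals and libraries. ORC1, the ATPase subunit of the origin recognition complex whose level varies over the cell cycle (chr1:52838501-52870095), was at 6.19, 2.22 and 9.44 FPKM. Its log2 difference from vehicle was −1.48 in CDK2i and 0.61 in EZH2i. Neither gene reached 8 FPKM in vehicle or CDK2i, which kept both outside the count. CDT1, the partner of CDC6 in loading (chr16:88870197-88875666), had 26.7 FPKM without inhibitor, 11.4 with CDK2i and 25.1 with EZH2i. It was past the thresholds and lower in CDK2i by −1.23 (95% counting interval −1.37 to −1.08), while its EZH2i level differed from vehicle by −0.09.

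Averaged on the log2 scale, ORC1, CDC6 and CDT1 stood 3.05-fold below the 6 helicase genes without inhibitor. They stood 8.20-fold below them under CDK2i and 2.90-fold below under EZH2i. A ratio of this kind is taken within a library and does not move with the scaling between libraries. ORC6, a small subunit of the origin recognition complex (chr16:46723555-46732306), measured 10.9 FPKM in the vehicle tumor, 6.98 under CDK2i and 24.7 under EZH2i. It was past the thresholds in EZH2i with a difference of 1.17 or 2.26-fold, and its difference in CDK2i was −0.65. GMNN, the inhibitor of CDT1, was at 17.1, 10.9 and 24.5 FPKM, and the ratio of CDT1 to GMNN was 1.56 in vehicle, 1.05 in CDK2i and 1.02 in EZH2i. With the GC and length trend removed, the ratio in EZH2i was 1.38.

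Of the 6 helicase activation genes, 5 were below vehicle in CDK2i and all 6 were above it in EZH2i, with medians of −0.67 and 0.65. GINS3, a subunit of the GINS complex, had 5.40 FPKM without inhibitor, 1.93 with CDK2i and 8.73 with EZH2i, a difference of −1.49 in CDK2i. Its partner GINS4 was at 7.48, 7.49 and 11.4 FPKM, the smallest CDK2i difference of any member. The ratio of GINS3 to GINS4 was accordingly 0.722 in vehicle, 0.257 in CDK2i and 0.767 in EZH2i, although the proteins form a complex with 1 copy of each. GINS1 was at 12.5, 7.67 and 24.4 FPKM, with differences of −0.70 and 0.97, and GINS2 at 5.75, 3.68 and 7.05 FPKM, with differences of −0.65 and 0.29. CDC45, which binds the helicase at the fork, was at 9.21, 6.43 and 11.5 FPKM. MCM10, which is needed to activate the assembled helicase, measured 2.72 FPKM in the vehicle tumor, 1.25 under CDK2i and 7.75 under EZH2i. That level differed from vehicle by −1.12 in CDK2i and 1.51 in EZH2i, and it rested on about 207, 109 and 618 fragments.

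PCNA, the sliding clamp that holds polymerases on DNA, had 76.4 FPKM without inhibitor, 84.2 with CDK2i and 95.0 with EZH2i, differences of 0.14 and 0.31. The clamp loader genes RFC2 to RFC5 were each above vehicle in EZH2i. In CDK2i the counting intervals of RFC2, RFC3 and RFC5 included 0, and their differences turned to 0.09, 0.05 and 0.02 with centring on the median gene. RFC4 had the largest CDK2i difference of them, −0.89, from levels of 30.2, 16.3 and 39.2 FPKM. RFC3 (chr13:34392206-34540695) measured 9.25 FPKM in the vehicle tumor, 8.46 under CDK2i and 22.6 under EZH2i, and was past the thresholds in EZH2i with a difference of 1.29 (95% counting interval 1.11 to 1.47). RFC2 had the smallest loader difference in CDK2i, −0.10, and RFC5 stood at −0.17 and 0.61. So the loader subunits, which sit in 1 complex, did not share 1 pattern of levels. The ratio of RFC4 to RFC3 was 3.26 in vehicle, 1.92 in CDK2i and 1.74 in EZH2i. With the GC and length trend removed, the ratio in EZH2i was 2.20.

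Among the 8 polymerase and primase genes, 4 were below and 4 above vehicle in the CDK2i tumor, a median of 0.01. POLA2, the accessory subunit of polymerase alpha (chr11:65029384-65073430), had 8.12 FPKM without inhibitor, 3.87 with CDK2i and 11.1 with EZH2i. It was past the thresholds in CDK2i by a narrow margin, with a difference of −1.07 and a 95% counting interval of −1.29 to −0.85. POLA1, the catalytic subunit, was at 2.04, 2.24 and 3.98 FPKM. The ratio of POLA2 to POLA1 was 3.98 in vehicle, 1.73 in CDK2i and 2.78 in EZH2i. With the GC and length trend removed, the ratio in EZH2i was 3.97, so its fall from vehicle was gone. POLE2, a subunit of polymerase epsilon, was at 6.65, 3.24 and 12.8 FPKM, differences of −1.04 and 0.94. The catalytic subunit gene POLE was at 11.9, 11.0 and 17.6 FPKM, with a difference of −0.11 in CDK2i. In both polymerases the accessory subunit was thus the lower of the pair relative to vehicle in CDK2i.

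The polymerase delta genes had the opposite order of the treated tumors in the deposited values. POLD1, its catalytic subunit, measured 18.2 FPKM in the vehicle tumor, 22.9 under CDK2i and 18.4 under EZH2i, and POLD2 at 60.8, 74.8 and 56.5 FPKM. These are 2 of the 4 members that were lower in EZH2i than in CDK2i, the others being MCM7 and TK1. With the trend over GC content and transcript length removed, all 4 turned higher in EZH2i, POLD1 by 0.32, POLD2 by 0.14, MCM7 by 0.09 and TK1 by 0.51, and RRM1 alone was lower, by −0.02. The ratio of POLD2 to POLD1 was 3.34, 3.27 and 3.06. The primase subunit gene PRIM1 was at 4.83, 3.49 and 6.76 FPKM and PRIM2 at 2.60, 3.31 and 5.68 FPKM. PRIM2 has closely similar copies in the genome that could share its reads, so its difference of 1.13 in EZH2i is uncertain, and it rested on about 73 fragments in vehicle and 168 in EZH2i.

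FEN1, the nuclease that trims RNA primer flaps from Okazaki fragments (chr11:61560383-61564710), had 21.7 FPKM without inhibitor, 9.49 with CDK2i and 30.9 with EZH2i. It was past the thresholds and lower in CDK2i by −1.19, a fold of 2.28, with a 95% counting interval of −1.38 to −1.01. LIG1, the ligase that acts after FEN1, was at 12.1, 10.7 and 15.9 FPKM, with differences of −0.18 and 0.40. FEN1 therefore exceeded LIG1 by 1.79-fold in vehicle and 1.94-fold in EZH2i, and stood below it in CDK2i at a ratio of 0.887.

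The largest CDK2i difference above vehicle of any member, that of RRM1, fell among the nucleotide supply genes. Of these 5 genes, 3 were below vehicle in CDK2i, and their median difference was −0.05. RRM1, the large subunit of ribonucleotide reductase, measured 10.9 FPKM in the vehicle tumor, 17.4 under CDK2i and 21.0 under EZH2i, differences of 0.68 and 0.95. RRM2, the small subunit that is made in S phase (chr2:10260825-10351851), was at 26.3, 25.5 and 65.8 FPKM. It was past the thresholds in EZH2i with a difference of 1.32, a fold of 2.50 with a 95% counting interval of 1.23 to 1.41 for the log2 value, and its CDK2i difference was −0.05. The ratio of RRM2 to RRM1 was 2.42 in vehicle, 1.47 in CDK2i and 3.13 in EZH2i. TK1, the thymidine kinase of the salvage pathway, was at 64.4, 82.7 and 75.9 FPKM. TYMS, which makes thymidylate and whose 3' end overlaps that of an antisense gene, was at 20.0, 17.3 and 32.1 FPKM. DUT, which removes dUTP, was at 45.3, 39.5 and 46.3 FPKM, the smallest EZH2i difference of this role at 0.03.

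The chromatin genes were alike in the CDK2i tumor, between −0.67 for CHAF1A and −0.60 for UHRF1. CHAF1A and CHAF1B encode subunits of the CAF-1 histone chaperone, which deposits histones behind the fork. CHAF1A had 15.1 FPKM without inhibitor, 9.48 with CDK2i and 18.3 with EZH2i, and CHAF1B at 4.16, 2.71 and 4.98 FPKM. The ratio of CHAF1A to CHAF1B stayed at 3.62, 3.49 and 3.68, the narrowest range of the subunit pairs examined in the deposited values. With the GC and length trend removed, their EZH2i differences were 0.49 and 0.03. UHRF1, which recruits the maintenance DNA methyltransferase to hemimethylated DNA, was at 14.9, 9.85 and 25.6 FPKM, with an EZH2i difference of 0.78.

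All 4 E2F genes were below vehicle in the CDK2i tumor. E2F1 measured 35.1 FPKM in the vehicle tumor, 22.0 under CDK2i and 28.3 under EZH2i, so it was highest in vehicle and had the lowest EZH2i difference of all members, −0.31. E2F1 transcripts are rich in GC, and with the GC and length trend removed this difference turned to 0.10 and was no longer the lowest. E2F2 was at 7.57, 5.32 and 9.59 FPKM, with differences of −0.51 and 0.34. The repressor E2F7 had 1.57 FPKM without inhibitor, 0.710 with CDK2i and 5.12 with EZH2i, with differences of −1.14 and 1.71, from about 151, 78 and 514 fragments. E2F8 was at 1.89, 0.594 and 3.63 FPKM, with differences of −1.67 (95% counting interval −2.22 to −1.16) and 0.94, from about 118, 42 and 235 fragments. None was past the thresholds against vehicle, as E2F7 and E2F8 were under the minimum level and E2F1 and E2F2 under the fold. Averaged on the log2 scale, the activators E2F1 and E2F2 exceeded the repressors E2F7 and E2F8 by 9.46-fold in vehicle, 16.7-fold in CDK2i and 3.82-fold in EZH2i. With the GC and length trend removed the EZH2i ratio was 5.88-fold.

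Compared directly, the EZH2i tumor was above the CDK2i tumor for 40 members and below it for 4, against 33.0% of all expressed genes below. The median difference was 0.86, against 0.35 for all expressed genes. Past the thresholds 14 members were higher in EZH2i, 38.9% of the 36 above the minimum, and 0 were lower, against 17.5% and 6.52% of all genes above the minimum. They were ORC1, ORC6, CDC6, CDT1 and GMNN in licensing, GINS1 and GINS3, the loader genes RFC3 and RFC4, POLA2 and POLE2, and FEN1, RRM2 and UHRF1. With the libraries centred on the median expressed gene, 7 of them stayed past the thresholds, and CDT1, GMNN, RFC3, RFC4, RRM2 and UHRF1 fell under the fold. GINS3 also left the count, with a difference of 1.75 but a level under the minimum. Centring also moved the median of all expressed genes, from 0.35 to −0.08. The share of all genes past the thresholds after centring is not given here. The largest of the 14 folds was 5.62 for CDC6 and the smallest 2.20 for CDT1. E2F7, MCM10 and E2F8 had larger folds of 7.21, 6.19 and 6.11 but did not reach the minimum level. The 14 genes hold 5 of the 11 licensing genes but none of MCM2 to MCM7.

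Other genes of the cell cycle were counted from lists of known function. Of 35 further replication genes, 24 were below vehicle in CDK2i and 5 in EZH2i, with medians of −0.25 and 0.58. In this list 0 genes were past the thresholds in CDK2i and 6 were higher in EZH2i, namely DBF4, TOPBP1, TICRR, DSCC1, WDHD1 and NASP. Of all genes above the minimum, 8.07% were lower in CDK2i and 8.93% higher in EZH2i. With the GC and length trend removed, the EZH2i median of this list was 0.45. TICRR, which links CDK activity to loading of CDC45, had the largest difference of the list in both tumors in the deposited values. It was at 3.70 FPKM in the vehicle tumor, 0.934 under CDK2i and 8.68 under EZH2i. DBF4, the activating subunit of the CDC7 kinase, was at 3.99, 1.51 and 8.44 FPKM. The median of the 14 genes of G1/S control was −0.14 in CDK2i and 0.69 in EZH2i, or 0.52 in EZH2i with the trend removed. Of these genes 3 were past the thresholds and higher in EZH2i, E2F3, RB1 and CCNA2. With the trend removed their EZH2i differences were 0.74, 0.82 and 0.97, under a fold of 2. CCNE1, a partner of CDK2, was at 6.30, 2.89 and 9.31 FPKM, and CDK2 itself at 7.38, 7.12 and 11.6 FPKM.

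The mitosis and spindle list had larger EZH2i differences than the members. Of its 25 genes, 23 were below vehicle in CDK2i and 0 in EZH2i, with medians of −0.46 and 1.05. Past the thresholds, 13 of the 25 were higher in EZH2i, against 3 of the 44 members, and 2, AURKA and NDC80, were lower in CDK2i. Of all genes above the minimum, 8.93% were higher in EZH2i and 8.07% lower in CDK2i. With the GC and length trend removed, the EZH2i median of the mitosis list was 0.84, against 0.51 for the members. Of the 13 genes, only MKI67, KIF23 and ASPM then kept a log2 difference above 1, at 1.07, 1.07 and 1.18. PLK1 and CDC20, under a fold of 2 before, then stood at 1.085 and 1.095. AURKA, a mitotic kinase, measured 19.9 FPKM in the vehicle tumor, 4.94 under CDK2i and 35.7 under EZH2i, and MKI67, the proliferation marker, at 8.35, 6.01 and 23.8 FPKM. Of 24 DNA repair genes, 20 were below vehicle in CDK2i and 1 in EZH2i, with medians of −0.33 and 0.82, and past the thresholds 2, RAD54L and MSH6, were lower in CDK2i and 6 were higher in EZH2i. With the GC and length trend removed, the EZH2i median of the repair genes was 0.51, the same as that of the members. The highest of the 6 repair genes was then EXO1 at 0.84, under a fold of 2. The differences between lists were not tested, since there is 1 library per group.

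**Figure D3:**
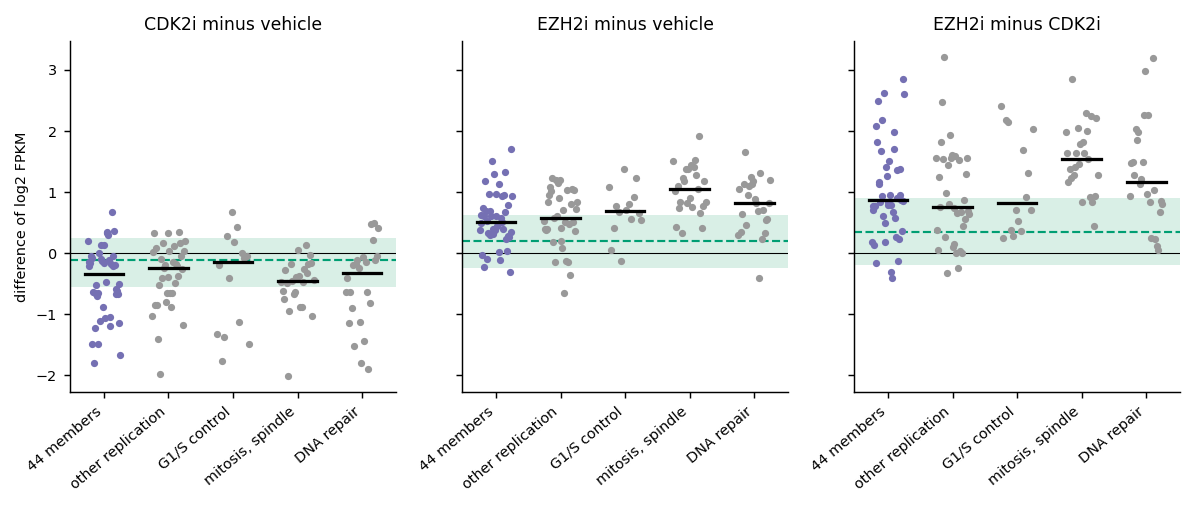
Differences of log2 FPKM for the 44 members and 4 further lists of cell cycle genes in the 3 comparisons; each point is a gene, black bars are list medians, and the green line and band are the median and quartiles of all expressed genes. The member median is −0.34 for CDK2i, 0.52 for EZH2i and 0.86 between the treated tumors, and the mitosis list has the highest medians in EZH2i, 1.05 and 1.54.

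The size of these values depended on how the libraries were scaled to each other. With the libraries centred on the median expressed gene of each, 25 members were below vehicle in CDK2i and 36 above it in EZH2i, and the member medians were −0.16 and 0.27. The median difference of all expressed genes was then 0.07 for CDK2i and −0.06 for EZH2i. With the summed FPKM made equal, 29 were below in CDK2i and 43 above in EZH2i. The gap between the member median and that of all expressed genes was −0.23 for CDK2i, 0.32 for EZH2i and 0.51 between the treated tumors, and a scaling cannot move this gap by its construction, since it adds 1 value to every gene. Ribosomal protein genes held 15.4% of the summed FPKM of the vehicle tumor, 8.68% under CDK2i and 8.33% under EZH2i, and mitochondrially encoded genes 21.6%, 14.2% and 19.1%, and their part in the member values was not tested beyond these scalings.

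**Figure D4:**
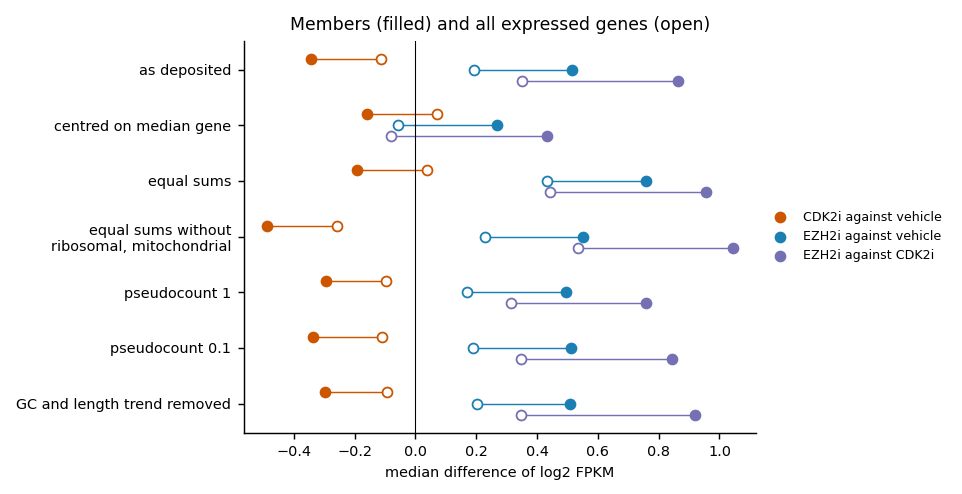
Median difference of log2 FPKM over the 44 members (filled) and over all expressed genes (open) in the 3 comparisons, under the deposited scaling and 6 alternatives listed on the vertical axis. The filled points lie left of the open ones for CDK2i and right of them for both EZH2i comparisons in every row, with a gap of −0.23, 0.32 and 0.51 under the deposited scaling; in the rows that only rescale libraries this gap is fixed by construction.

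Values in the EZH2i tumor also ran with the base composition of the transcripts. Over 10203 expressed genes Spearman's rho between GC content and the EZH2i difference was −0.58, against 0.03 for CDK2i, and over the 44 members it was −0.72 and 0.04. These correlations are across genes of the same libraries and are given as a description. RFC3, at 38.0% GC, had a difference of 1.29 in EZH2i, and E2F1, at 61.6%, had −0.31, which turned to 0.10 with the trend removed. With the trend over GC content and transcript length removed, the member median in EZH2i was 0.51, against 0.20 for all genes, and 43 of 44 were above vehicle. MCM5, MCM7, CDT1, POLD2 and E2F1, the 5 members below vehicle before this step, were then above it, and DUT alone was below it at −0.08. ORC6 alone stayed past the thresholds, and RFC3 and RRM2 each stood at 0.99. For CDK2i the median was −0.30 after this step, with 3 members past the thresholds as before.

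Lower members had larger differences than higher ones, as did expressed genes in general. The 22 members of lower mean level had median differences of −0.57 (CDK2i) and 0.65 (EZH2i), and all genes between the same levels had −0.22 and 0.32. For the 22 members of higher level the medians were −0.18 and 0.38, against 0.02 and 0.05 for all genes. In each of these bands the member median was thus further from 0 than that of the genes of like level.

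**Figure D5:**
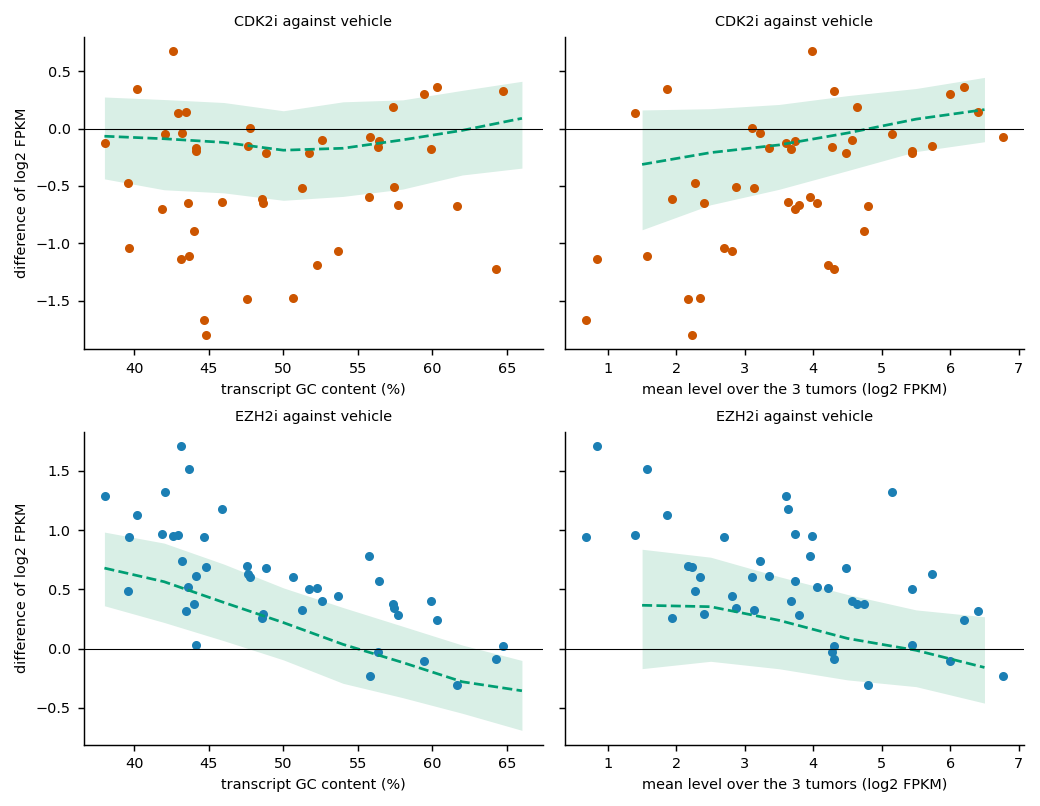
Difference of log2 FPKM of the 44 members against transcript GC content (left, in %) and mean level (right, in log2 FPKM) for CDK2i (top) and EZH2i (bottom); the green line and band are the median and quartiles of all expressed genes in bins. In EZH2i the members run downward with GC content along the line of all genes and mostly above it, and in CDK2i no such slope is seen, with rho over members of −0.72 and 0.04.

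The labelled cell type was checked with marker genes. All 8 epithelial markers were above 1 FPKM in each tumor, and their summed level was 5279 FPKM without inhibitor, 12410 with CDK2i and 4971 with EZH2i. KRT5, KRT14 and KRT17, keratins of basal cells, were past the thresholds and higher in CDK2i than in vehicle. EGFR was past them and higher in EZH2i, with a difference of 1.05, or 0.61 with the GC and length trend removed. Of the 8 epithelial markers, 5 were above and 3 below vehicle in EZH2i. KRT14 alone measured 2458 FPKM in the vehicle tumor, 6269 under CDK2i and 2541 under EZH2i, and the part of this keratin share in the member values was not tested. Of 8 leukocyte markers sought, MS4A1 had no listed value. Of the other 7, 2, CD14 and ITGAM, were above 1 FPKM in each tumor, and these 7 summed to 11.3, 11.1 and 5.30 FPKM. CD14 was at 8.02, 7.95 and 3.15 FPKM, past the thresholds and lower in EZH2i than in vehicle, and ITGAM at 3.07, 2.97 and 1.94 FPKM. The EZH2i difference of CD14 was −1.35, or −0.71 with the GC and length trend removed. PTPRC, CD68, CD163 and CD3E stood at or under 0.0318 FPKM throughout, and CSF1R at 0.164, 0.131 and 0.215 FPKM. The 7 fibroblast markers summed to 24.4, 38.3 and 28.8 FPKM, with THY1 listed at 0 in each tumor. Of the 6 with a value above 0, 3 were higher and 3 lower in CDK2i than in vehicle. LUM, at 4.54, 9.19 and 6.95 FPKM, was past the thresholds and higher in CDK2i. COL3A1 went the other way, at 3.88, 1.43 and 0.927 FPKM. Of 6 endothelial markers sought, PECAM1 and TEK had no listed value, and the other 4 summed to 0.927, 0.751 and 0.734 FPKM.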

How the data were processed

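Total RNA of 3 SUM-149 xenograft tumors was sequenced, with 1 library per group as given by the labels. The authors deposited log2 FPKM values per gene symbol, with −9 where FPKM appears to be 0. The submitters' processing notes name CASAVA and STAR, and the study names GRCh37 as the reference. Versions, the counting tool, gene lengths and strand use are not given in the sources used here. Steps of 1 fragment in the values of low genes gave depths of about 16790000, 19140000 and 17520000 fragments for vehicle, CDK2i and EZH2i.

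Differences of log2 FPKM were computed without a pseudocount over all 29689 genes in Python 3.11.15 with pandas 2.3.3, and were checked on simulated data. With 1 library per group no test was run, and counting intervals (95%, exact Clopper-Pearson, on fragments estimated from GENCODE 44 transcript lengths) leave out animal and library error. Fragment numbers are estimates for the same reason. The GC and length trend was fitted as a polynomial of degree 3 over annotated expressed genes, and its removal kept their median. The alternatives tried were 3 scalings, 2 pseudocounts, this trend, 2 fold thresholds and 3 minimum levels. The members and the other gene lists were chosen with earlier results of these data known. Named in full were members past the thresholds, the highest and lowest vehicle levels and the extremes of each role, and from other lists genes past the thresholds or with the largest differences.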

Additional observations from a re-analysis of the deposited data

How the results depend on the processing

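No member past the thresholds changed sign under any alternative, which their choice for a fold above 2 nearly fixed in advance. Other members did change sign, as 19 were above vehicle in CDK2i after centring, against 9 as deposited. For CDK2i, EZH2i and EZH2i against CDK2i in that order, the member medians were −0.16, 0.27 and 0.43 after centring on the median gene, −0.19, 0.76 and 0.96 with equal sums, and −0.49, 0.55 and 1.04 with sums that left out ribosomal protein and mitochondrially encoded genes. They were −0.29, 0.49 and 0.76 with a pseudocount of 1, −0.34, 0.51 and 0.85 with one of 0.1, and −0.30, 0.51 and 0.92 with the GC and length trend removed. Centring left 7 members past the thresholds and higher in EZH2i than in CDK2i. Equal sums gave 8 members past the thresholds in EZH2i against vehicle, sums without those gene classes 5, and removal of the trend 1. With equal sums the median difference of all expressed genes in EZH2i also rose, from 0.19 to 0.43. In the same order of comparisons, a fold of 1.5 gave 11, 15 and 24 members and a fold of 3 gave 0, 0 and 7. A minimum of log2 FPKM 5 gave 0, 1 and 2, and no minimum gave 10 and 6 against vehicle (8 and 6 with a minimum of 1). Apart from the minimum of 1, the shares of all genes under these alternatives are not given here. These counts alone therefore show nothing particular to the members. POLA2 in CDK2i was under a fold of 2 after centring, with equal sums and with a pseudocount of 1, at −0.89 in the smallest of these, and ORC6 in EZH2i after centring, at 0.93. The cause of these shifts was not tested beyond the scalings themselves. No paired analysis was possible because each group has 1 library, and leaving out a replicate was not possible for the same reason. Depth limits E2F8, PRIM2, E2F7, GINS3 and PRIM1 most, with fewer than 100 fragments in at least 1 tumor.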
